A study of Hydra viridissima with 2 samples.

Results

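Among the 34573 gene models of the green hydra Hydra viridissima, 109 were abundant, short and split into several exons. They were chosen by 4 criteria. The coding length was at most 750 nt, the model had at least 2 exons after overlapping exon intervals were merged, and the mean level over both libraries was at least 200 CPM, CPM being a model's count divided by the library total and scaled to 1000000. The fourth criterion was an absolute log2 ratio between the libraries under 1, with 0.5 CPM added to each level. These values of length, exon number, level and ratio chose the genes, so they are given as descriptions without a test. Of the 4506 multi-exon models of at most 750 nt, 2947 had a mean of at least 1 CPM, 109 reached 200 CPM, and 539 had no count in either library. The limit on the ratio left out 0 of the 109.

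Whole polyps of clone 2 were sequenced as 1 library without their algae (aposymbiotic) and 1 library from green polyps that carry them (green/symbiotic). Each library came from a pool of about 200 large, brine shrimp-fed polyps, and ribosomal RNA was removed enzymatically from the total RNA. One label gives polyA RNA as the molecule, but the protocol describes total RNA. How the aposymbiotic polyps lost their algae is not given in the labels. The comparison asks how transcript levels differ with and without the alga. With 1 library per condition there is no replicate check, no test and no p-value. Intervals of ratios and of shares of counts cover counting error only. Intervals of shares of models and of medians are taken over gene models, which are not replicates. The aposymbiotic library held 5533508 counted read pairs and the symbiotic library 6905650. Over the 892 models with a mean of at least 200 CPM, the log2 ratios had a robust standard deviation of 0.151, which is 3.43 times the median counting error. Every ratio below compares these 2 libraries and is to be read against that spread. Whole polyps mix all cell types, so fewer cells of a type and less RNA per cell cannot be told apart.

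In animals, very abundant transcripts with short coding regions commonly encode small proteins that every cell needs in bulk. Ribosomal proteins are the best known of them, and small subunits of the respiratory chain and small actin-binding proteins are others. Ribosomal protein genes of animals are typically short genes with several introns, and in humans many have an intron inside or directly behind the start codon. Green hydra itself houses green algae in the epithelial cells that line its gut, and the algae pass sugar to the host. The files do not pair the model identifiers with gene names or sequences, so the 109 genes are given by position, without a name or a role. Counts of lists such as ribosomal proteins or cell type markers could not be formed.

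The members held 7.80% of the aposymbiotic counts (95% Clopper-Pearson interval 7.77 to 7.82). In the symbiotic library they held 7.49% (7.47 to 7.51). Their mean level ran from 201 to 3307 CPM with a median of 580 CPM. Per kilobase of coding length, the scale on which genes are compared, the range was 290 to 5080 CPM with a median of 1265. Ranked by CPM per kilobase, 9 of the 20 highest and 64 of the 100 highest models of the whole table were members. Ranked by CPM alone, 1 of the 20 highest and 18 of the 100 highest were. The rule chose models of short length and high level, so the high ranks per kilobase follow in part from the rule itself. The 4 members with the highest CPM held 14.3% of the members' aposymbiotic counts (14.2 to 14.4) and 14.5% of their symbiotic counts (14.4 to 14.6).

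The member with the highest level per kilobase lies on scaffold 7 (7415377 to 7417384, minus strand). Its 651 nt are split over 4 exons, and it had 18246 aposymbiotic and 22907 symbiotic counts, or 3297 and 3317 CPM. These levels correspond to 5080 CPM per kilobase and a log2 ratio of 0.0086 (95% counting interval -0.019 to 0.037). Both libraries thus gave nearly the same level. A model of 636 nt in 7 exons on scaffold 5 (9142041 to 9144606, minus strand) followed at 2735 aposymbiotic and 2707 symbiotic CPM, 4278 CPM per kilobase. Next stood a model of 702 nt in 5 exons on scaffold 11 (15351004 to 15354851, plus strand) with 3056 and 2880 CPM, 4228 CPM per kilobase.

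The next 5 members per kilobase stood between 2575 and 3422 CPM per kilobase. A 4-exon gene on scaffold 7 (4755273 to 4756501, 393 nt) had 1367 aposymbiotic and 1323 symbiotic CPM. A 2-exon gene on scaffold 10 (818531 to 820919, 636 nt) had 2032 and 1978 CPM. Another 2-exon gene, on scaffold 3 (11443336 to 11447942, 441 nt), had 1322 and 1210 CPM and a single intron of 4166 bp. On scaffold 10, a 4-exon gene (15631730 to 15634959, 468 nt) had 1305 and 1303 CPM. The last of the 5 was a compact 2-exon gene on scaffold 7 (11907279 to 11907825, 351 nt) with 958 and 849 CPM. All 8 of these genes were close to equality, with log2 ratios from -0.17 to 0.0086.

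**Figure D1:**
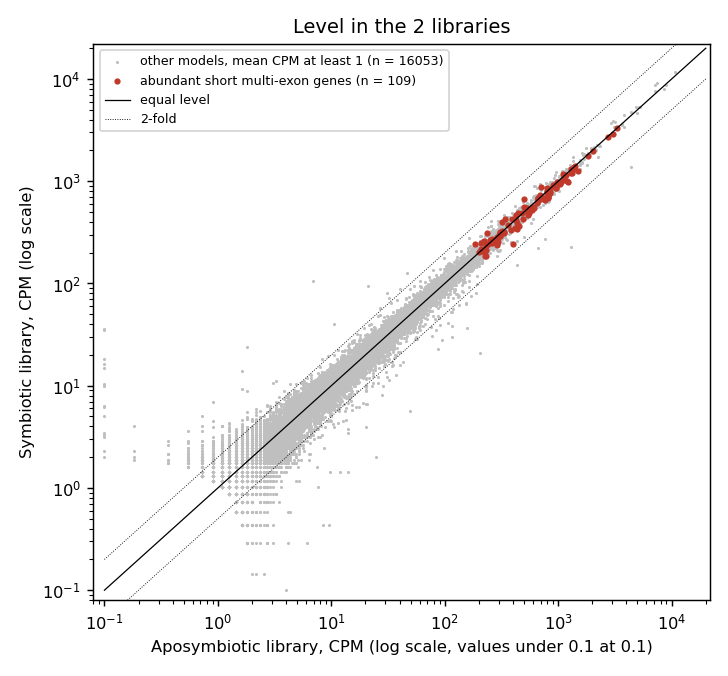
Level of each model in the aposymbiotic (x) and the symbiotic library (y), in CPM on log axes; red points are the 109 abundant short multi-exon genes, grey points the other models with a mean of at least 1 CPM, and lines mark equality and a 2-fold difference. The red points lie close to the line of equality from about 201 to 3307 CPM mean level, between the 2-fold lines by the rule that chose them.

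Near the edges of the rule, values were continuous. The lowest members were a 4-exon gene on scaffold 2 (18380186 to 18381076) at a mean of 201 CPM and one on scaffold 11 (15286586 to 15287574) at 206 CPM. The highest models left out for their level stood at 197 and 194 CPM. By length, 3 members had 747 nt and the shortest abundant multi-exon models left out had 753 and 762 nt. There were 7 models with a single exon that met the other criteria, at 216 to 1874 CPM. By ratio, the extremes among the members were -0.71 and 0.42.

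Beyond a short coding length and at least 2 exons, the criteria did not fix how these genes are built. The models hold coding exons, since 98.4% of all lengths are multiples of 3. Members had a median of 4 exons (2 to 9), with 21 genes of 2 exons, 20 of 3, 34 of 4 and 34 of 5 or more. Most of the gene was intron: the median span from first to last coding base was 2200 bp, 3.99 times the coding length. The median of their 334 introns was 273.5 bp (interquartile range 134 to 688), against 215 bp over all multi-exon models and 185 bp in abundant multi-exon models of over 750 to 1500 nt. Short models at 1 to under 200 CPM had a median intron of 239 bp, and those at 10 to under 50 CPM one of 278.5 bp, close to the members. The longest intron of a member had a median of 1035 bp. In equally short models this median was 160 bp under 1 CPM, 363 bp at 1 to under 10 CPM, 1303 bp at 10 to under 50 CPM and 1135.5 bp at 50 to under 200 CPM, so that the 2 classes just below the members had the longer median. An intron of at least 1000 bp occurred in 58 members, 53.2%, against 50.7% of all multi-exon models and 49.7% of the abundant ones of over 750 to 1500 nt. Long introns were thus not particular to the members.

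The first coding exon was often very short. In 15 members, 13.8% (95% Clopper-Pearson interval 7.91 to 21.7), it was exactly 3 nt long, the length of a start codon, so the first intron follows at once. Over all multi-exon models this held for 188 of 14870, 1.26% (1.09 to 1.46). In a further member, on scaffold 6 (15609357 to 15613067), the first exon was 2 nt long, so that the first codon is itself split. First coding exons of at most 10 nt occurred in 24 members, 22.0% (14.6 to 31.0), against 3.23% (2.96 to 3.53) of all multi-exon models. In abundant genes of over 750 to 1500 nt the share was 12.6% (8.05 to 18.4), an interval that overlaps that of the members. The median first exon was 57 nt in the members, 75 nt in those longer abundant genes and 133 nt over all multi-exon models.

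Among equally short multi-exon models the share with a 3-nt first exon was larger at higher levels. It was 0.385% of 1559 models under 1 CPM, 1.41% of 1703 at 1 to under 10 CPM, and 2.55% of 903 at 10 to under 50 CPM. At 50 to under 200 CPM it was 3.45% of 232, with an upper bound of 6.68%, below the lower bound of 7.91% in the members. Within the members, 3 of the 38 under 400 CPM and 12 of the 71 at or above it had such an exon, and these intervals overlapped (1.66 to 21.4 and 9.05 to 27.7%). Among abundant multi-exon models the share was smaller in longer genes, at 9.14% of 175 genes of over 750 to 1500 nt (5.32 to 14.4), which overlaps the members' interval. It was 3.21% of 218 genes of over 1500 to 3000 nt and 1.37% of 366 longer ones. Genes are not replicates, and the models are predictions. Over the same 5 classes of level, from lowest to highest, the median coding length was 417, 441, 573, 573 and 504 nt and the median exon number 2, 3, 4, 4 and 4. Both were lowest under 1 CPM, and length was not highest in the members. Their part in the result was not tested.

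**Figure D2:**
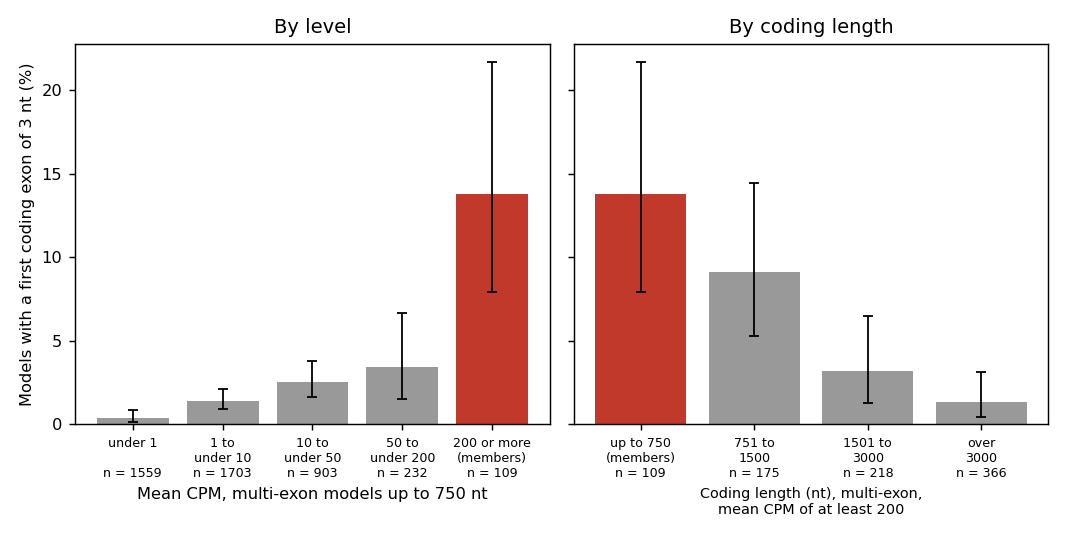
Share of models whose first coding exon is 3 nt long, in percent, with 95% Clopper-Pearson intervals; left, multi-exon models of at most 750 nt by mean CPM, right, multi-exon models with a mean of at least 200 CPM by coding length, with the members in red. The share is 0.385% under 1 CPM and 13.8% in the members, and 1.37% in abundant genes over 3000 nt.

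The 15 genes with a 3-nt first exon spanned 213 to 1399 CPM. The most abundant of them, with a mean of 1399 CPM, has 567 nt in 6 exons on scaffold 7 (7356520 to 7359463, minus strand), and its second exon of 87 nt lies 118 bp behind the first. The scaffold 10 gene at 15631730 and a model of 393 nt in 4 exons on scaffold 8 (4022452 to 4024936, plus strand, 955 CPM) came next. In the scaffold 8 gene the last coding exon was 3 nt long too, so that the stop codon stands alone. This occurred in 1 of the 109 members, 0.917%, and in 11 of all multi-exon models, 0.0740%. A 3-exon gene on scaffold 1 (14894598 to 14898829, 447 nt, 670 CPM) had a first intron of 116 bp and a second of 3669 bp. Coding length was shorter in these 15, with a median of 393 nt, than in the 70 members whose first exon exceeds 30 nt, with 540 nt. Their levels overlapped, with medians of 1276 and 1074 CPM per kilobase, within ranges of 476 to 2786 and 290 to 4228. Without the division by length the order was reversed, with medians of 484 and 549 CPM.

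**Figure D3:**
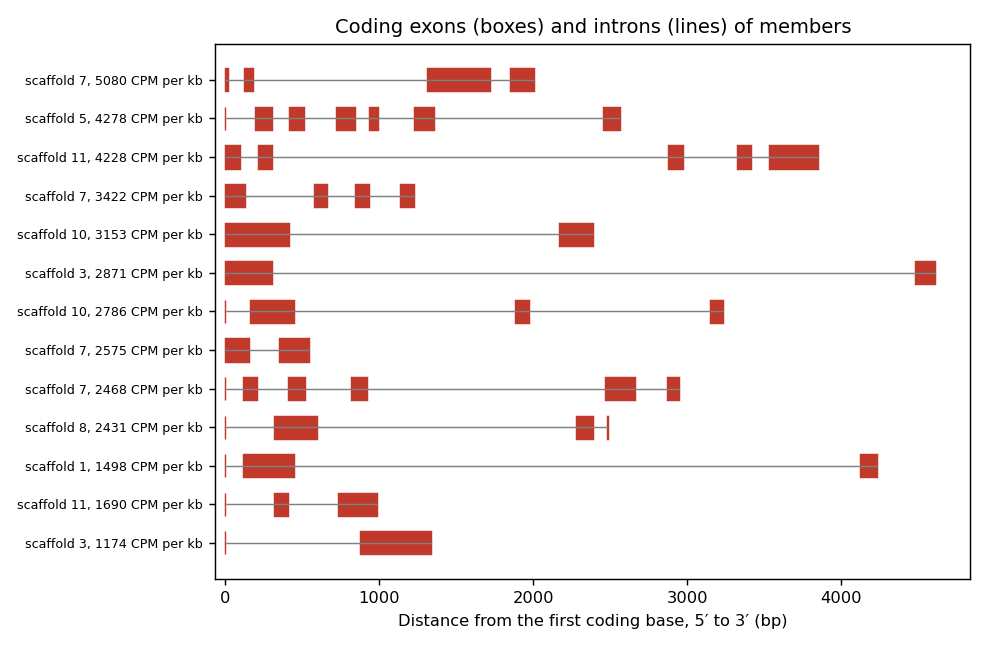
Coding exons (boxes) and introns (lines) of 13 members, drawn 5′ to 3′ from the first coding base in bp: the 8 members with the highest mean CPM per kilobase, then further members among the 6 most abundant with a first coding exon of 3 nt. Each name gives the scaffold and the mean CPM per kilobase; thin marks at the left edge are the very short first exons.

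Introns fell between codons (phase 0) in 49.4% of the members' 334 introns, after the first base of a codon in 32.0% and after the second in 18.6%. Over all multi-exon models these shares were 44.9%, 33.4% and 21.7%. The 15 introns behind a 3-nt exon are phase 0 by construction. Members were spread over 16 of the 105 scaffolds. Scaffold 6 carried most, 16 members or 14.7%, where it holds 5.77% of all models and 9.29% of the 872 abundant multi-exon models. Scaffold 1 carried 11 members, 10.1%, with 12.4% of all models and 9.75% of the abundant multi-exon ones. They were seldom neighbours: 2 pairs of members had no other model between them, 2842 bp apart on scaffold 2 (6739808 to 6741726 and 6744569 to 6746145) and 2849 bp apart on scaffold 1 (13710962 to 13713151 and 13716001 to 13718200). In each pair the ratios differed in sign, at -0.15 and 0.025 and at 0.062 and -0.13. The counting intervals of the positive ratios include 0, however (-0.029 to 0.079 and -0.00051 to 0.12). The gap to the nearest model had a median of 2486 bp, against 1931 bp for all multi-exon models.

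Between the libraries, most members differed little. Of the 109, 93 (85.3%) had a log2 ratio between -0.25 and 0.25, against 86.1% of all 892 models with a mean of at least 200 CPM. The members' median log2 ratio, symbiotic over aposymbiotic, was -0.066 (95% order-statistic interval over genes -0.086 to -0.018). The median was -0.0070 over those 892 models and -0.013 over the 16162 models with a mean of at least 1 CPM. Of the members, 73 lay below 0, and the number was 65 under TMM scaling (edgeR's trimmed mean of log ratios), which adds 0.027 to every ratio. Summed over all members, the log2 ratio was -0.057 (95% counting interval -0.063 to -0.051). Between log2 CPM of the libraries, Pearson's r was 0.985 and Spearman's rho 0.984 over the 109 genes, which share both libraries and are not replicates. The rule bounded the ratio of these same levels, so the correlations are descriptions only, although that limit left out 0 models.

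Counting error was small here, since members had 1030 to 18246 aposymbiotic and 1281 to 22907 symbiotic counts. The counting interval excluded equality in 15 members with a higher and 52 with a lower symbiotic level, 67 in all. Over the 892 abundant models the same held for 30.3% higher and 30% lower, and over all 16162 for 8.82% and 9.53%. The robust standard deviation of the members' ratio was 0.118, 3.44 times their median counting error of 0.034, so an interval that excludes 0 does not show a difference beyond the spread between these libraries. At an absolute log2 ratio of at least 0.32 with an interval excluding equality, 4 members were higher with algae and 3 were lower. Under TMM scaling these counts were 6 and 1. On column totals that is 3.67% and 2.75%, where 4.37% and 3.59% of the 892 abundant models and 4.65% and 5.93% of all 16162 were called. At 1.5-fold, 0 members were higher and 1 was lower, where 0.224% and 1.23% of the 892 and 1.91% and 3.06% of the 16162 were called. The ratio was part of the rule, so nothing is read from these counts.

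**Figure D4:**
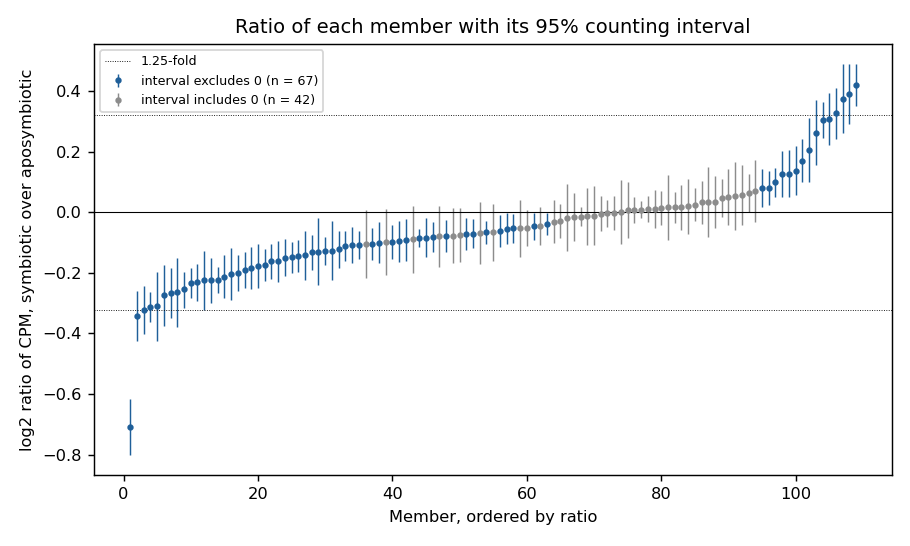
Log2 ratio, symbiotic over aposymbiotic CPM (y), of each of the 109 members, ordered by ratio (x), with 95% counting intervals; dotted lines mark a log2 ratio of 0.32 in either direction, the smaller fold used for counting. The interval excludes 0 in 67 members, most members lie slightly below 0, and the lowest, at -0.71, stands apart from the rest.

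The lowest member, cHydvir-v1B3C1_g1400 on scaffold 1 (13586008 to 13587383, minus strand, 3 exons, 519 nt), had 2209 aposymbiotic and 1686 symbiotic counts. Its levels were 399 and 244 CPM, a log2 ratio of -0.71 (-0.80 to -0.62), which is 1.64-fold higher in the aposymbiotic library. It stood apart, as the next lowest ratio was -0.34. Model cHydvir-v1B3C1_g19134 on scaffold 3 (5501587 to 5502885, minus strand, 6 exons, 432 nt) ranked second by the interval bound nearest to equality, at 1222 aposymbiotic CPM, 984 symbiotic CPM and a log2 ratio of -0.31 (-0.36 to -0.26). It was also the ninth most abundant member per kilobase, at 2553 CPM per kilobase.

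Another 4 low members followed at between -0.34 and -0.25. A 3-exon gene on scaffold 2 (3846926 to 3847526, 333 nt) had 433 and 342 CPM, and a 4-exon gene on scaffold 6 (11681438 to 11682392, 498 nt) had 456 and 364 CPM. On scaffold 1, a gene of 6 exons (34073038 to 34075046) had 230 and 186 CPM and the lowest level per kilobase of all members, 290 CPM. Last came a 4-exon gene on scaffold 1 (8987368 to 8988242, 489 nt) at 809 and 678 CPM. These 6 genes lie on 4 scaffolds and none is next to another member.

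At the upper end, cHydvir-v1B3C1_g30313 on scaffold 7 (17602392 to 17640149, plus strand, 3 exons, 735 nt) had 2745 aposymbiotic and 4585 symbiotic counts. Its levels were 496 and 664 CPM, a log2 ratio of 0.42 (0.35 to 0.49). It is also the member with the longest span, 37758 bp, with introns of 24617 and 12406 bp, and the only member that overlaps other models. Its last exon of 128 nt, 17.4% of its coding length, lies inside a single-exon model on the same strand (17639415 to 17640149). That model had 34 and 38 counts, and reads over both models were not admitted to either count. Inside its second intron lies a single-exon model on the minus strand (17631892 to 17632626) with 257 aposymbiotic CPM against 406 symbiotic CPM, log2 ratio 0.66 (0.57 to 0.75). Both single-exon models are 735 nt long, the same as the coding length of this member. Multiply aligned reads were left out too, and how many were lost at these models cannot be seen from the counts. The counting used no strand setting, so both strands of a locus are summed. The member's exons do not overlap the exon of the minus-strand model, however.

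Model cHydvir-v1B3C1_g8149 on scaffold 11 (15730851 to 15732383, plus strand, 3 exons, 516 nt) ranked second, with 238 and 312 CPM and a log2 ratio of 0.39 (0.29 to 0.49). Next were a 6-exon gene on scaffold 12 (5980386 to 5983473, 681 nt) at 186 and 242 CPM, and a 3-exon gene on scaffold 6 (15669419 to 15671745, 510 nt) at 705 and 871 CPM. A 6-exon gene on scaffold 1 (28785515 to 28787695, 714 nt) had 338 and 424 CPM, and a 2-exon gene on scaffold 6 (14818785 to 14819504, 534 nt) had 323 and 399 CPM. The ratios of these 4 lay between 0.30 and 0.38. Of the 6 highest genes, the scaffold 6 gene at 15669419 was the most abundant.

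Some of these genes look alike in structure, which was noticed after their values were seen. Models that begin with coding exons of 99 and 93 nt numbered 4 in the whole table, and 3 of them were members. The abundant scaffold 11 gene at 15351004 has exons of 99, 93, 99, 93 and 318 nt, the scaffold 6 gene at 15669419 has 99, 93 and 318 nt, and the scaffold 11 gene at 15730851 has 99, 93 and 324 nt. The fourth model, on scaffold 6 (15694164 to 15753444, minus strand), has exons of 99, 93, 321, 93 and 318 nt, 924 nt in all, and is too long for the rule. Introns at the same exon borders differ in length, such as 117, 1650 and 527 bp behind the first exon of the 3 members.

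Levels and ratios of these look-alike models differed. The scaffold 11 gene at 15351004, given above as the third per kilobase, had a log2 ratio of -0.086 (-0.12 to -0.056). The other 3 models were higher in the symbiotic library, at 0.30 (0.25 to 0.36), 0.39 (0.29 to 0.49) and 0.22 (0.16 to 0.29, for the fourth model, 617 and 720 CPM). Their counting intervals do not overlap that of the most abundant gene, which is beyond counting error, but no replicate shows the spread between libraries. Multiply aligned reads are absent from the counts, so no counted read is shared among these models. How many reads were left out or placed at the wrong model cannot be seen, so their levels are uncertain.

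Exact copies of an exon series occurred as well. On scaffold 139 (24051 to 24768) and scaffold 4 (5459028 to 5459745) lie members with exons of 3 and 351 nt around an intron of 364 bp. They had 443 and 428 aposymbiotic CPM and 484 and 467 symbiotic CPM, with log2 ratios of 0.126 and 0.127. Besides the member, 2 of the other 3 models on scaffold 139 share their exon lengths with models beside the scaffold 4 copy, both on the same side of it, while the last differs. The scaffold 139 copy took 50.9% of the pair's counts in each library (49.5 to 52.3 and 49.7 to 52.1). Another pair, with exons of 398 and 175 nt around an intron of 277 bp, lies on scaffolds 14 (4157793 to 4158642) and 15 (5447497 to 5448346), with 820 and 795 aposymbiotic and 804 and 767 symbiotic CPM. The scaffold 14 copy took 50.8% (49.8 to 51.8) and 51.2% (50.2 to 52.1). Multiply aligned reads are absent from the counts, so these levels cover reads placed at 1 copy. One more member, on scaffold 3 (4173327 to 4173997, exons of 79 and 494 nt, 259 CPM), shares its exon lengths with a model on scaffold 7 of 10.4 CPM (13164323 to 13165090).

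Median ratios of abundant multi-exon genes are given by coding length as a description, since length, level and ratio chose the members. With a mean of at least 200 CPM and an absolute log2 ratio under 1, the median was -0.066 in the members. It was -0.020 (-0.044 to 0.0096) in 175 genes of over 750 to 1500 nt, -0.016 (-0.043 to 0.0083) in 218 genes of over 1500 to 3000 nt, and 0.028 (0.0081 to 0.052) in 366 longer genes. The sign of the middle classes hangs on the scaling, since TMM turned them to 0.0075 and 0.011, while the members stayed at -0.039. The intervals are over genes, which are not replicates. Levels were not matched, as medians of mean CPM differed between these classes, at 580, 396, 319 and 329 CPM. Below 0 lay 67.0% of the members, 56.0%, 55.5% and 42.6%. The medians differ by less than the robust standard deviation within each class, 0.118 in the members and 0.139, 0.152 and 0.157 in the others. A relation of ratio and length over all expressed genes was known before this comparison, so it is no independent support for it.

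**Figure D5:**
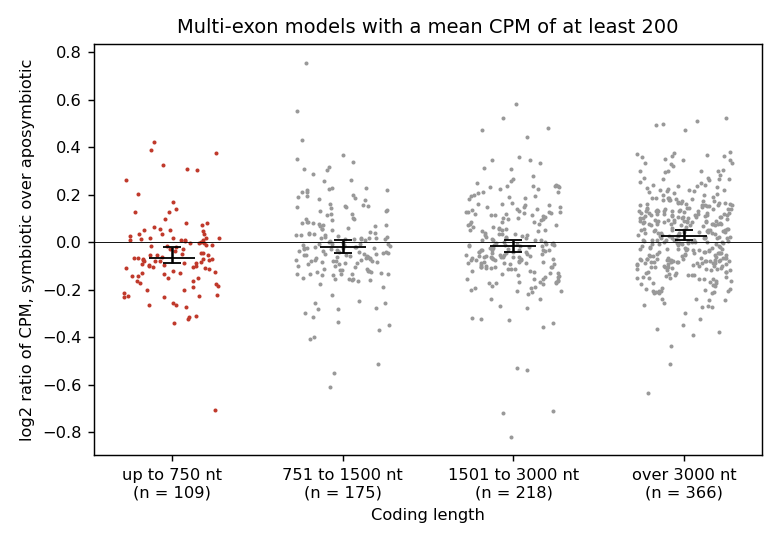
Log2 ratio, symbiotic over aposymbiotic CPM (y), by class of coding length (x) for multi-exon models with a mean of at least 200 CPM and an absolute log2 ratio under 1; points are genes, bars the medians with 95% order-statistic intervals over genes, and the members are red. Medians are -0.066, -0.020, -0.016 and 0.028 from short to long, and the points of all 4 classes overlap widely.

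Within the members, the median was -0.077 in 36 genes of at most 450 nt, -0.070 in 41 genes of over 450 to 600 nt and -0.029 in 32 longer ones. Spearman's rho over the 109 genes was 0.189 with length, -0.094 with mean CPM and -0.026 with exon number, as descriptions. The 34 genes with 4 exons had a median of -0.077 and 29 of them lay below 0. Below 0 were also 12 of the 21 genes with 2 exons, 12 of the 20 with 3 and 20 of the 34 with 5 or more. The 15 genes with a 3-nt first exon had a median of -0.031 (-0.10 to 0.016) and the 70 with a first exon over 30 nt one of -0.053 (-0.086 to -0.011). The shortest member, with 255 nt in 4 exons, lies on scaffold 4 (10326456 to 10329025) and stood at 541 aposymbiotic CPM against 467 symbiotic CPM, log2 ratio -0.21 (-0.28 to -0.14). The 3 members of 747 nt, the longest, lie on scaffolds 1 (11803263 to 11805673), 8 (10392045 to 10394273) and 9 (1487779 to 1489600). They had 1832 and 1750, 308 and 295, and 289 and 239 CPM in the aposymbiotic and symbiotic library. The member with most exons, 9 on scaffold 12 (6939345 to 6946700, 732 nt), had 217 and 214 CPM, a log2 ratio of -0.018 (-0.13 to 0.093). The member with the shortest span, on scaffold 8 (2305520 to 2306022), holds 395 nt in 503 bp with an intron of 108 bp. It had 812 and 819 CPM. It is also the 1 member whose length is not a multiple of 3.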

How the data were processed

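The deposited values are raw counts of read pairs per model. The authors counted with featureCounts (Subread 2.1.1) on a BRAKER3 annotation, per the file headers. Exons were summed per gene, no strand was set, and multiply aligned or multiply overlapping reads were left out by default. No genome build was named (not given in the sources used here). Upstream tools, per the submitters' processing notes, were fastp 1.1.0, STAR 2.7.11b and deepTools 3.5.6.

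CPM was computed on column totals, as the rule for the members states, and ratios with 0.5 CPM added to each level. Intervals of ratios are exact (Clopper-Pearson, conditional on both counts), and the calculation was tested on simulated data. Introns are the gaps between merged exons. Intervals of ratios and of shares of counts cover counting error only, while those of shares of models and of medians are over gene models.

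The members and lists were chosen with earlier results of these data known. Models named in the text were the 8 highest in CPM per kilobase, the 4 highest in CPM, the 6 highest and 6 lowest by the interval bound nearest to equality (first 2 with identifier), the extremes of length, exons and span, those at the edges of the rule, the closest neighbouring members and those sharing exon lengths. Models with first exons of 2 or 3 nt, the models starting with 99 and 93 nt, and the overlapping models were chosen after their values were seen. Lists of ribosomal, respiratory and cell type genes were not formed.

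Alternatives were other scalings (TMM, RLE and upper quartile in edgeR 4.0.16 under R 4.3.3, and totals without the 100 largest genes), a prior of 5 CPM, other intervals and other edges of the rule. Work was done in Python 3.11.15 (numpy 2.4.6, scipy 1.17.1, pandas 2.3.3; plots in matplotlib 3.10.9).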

Additional observations from a re-analysis of the deposited data

How the results depend on the processing

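The median log2 ratio of the members stayed negative under every alternative run, from -0.075 to -0.037. Under TMM and RLE, 1 member had a log2 ratio of at most -0.32 and 6 one of at least 0.32, against 3 and 4 on column totals; the median was 0.011 and 0.012 in genes of over 1500 to 3000 nt and 0.055 and 0.056 in longer ones, because a scaling shifts all ratios alike. Other edges of the rule changed the counts by construction. With at most 600 nt, the members held 4.71% and 4.48% of the counts (aposymbiotic, then symbiotic), and 1 lay above 0.32 on the log2 scale; with at most 900 nt they held 9.71% and 9.36%. A mean of at least 100 CPM gave 187 members, 8.87% and 8.56% of the counts, 8 higher and 7 lower. A mean of at least 400 CPM gave 71 members, 6.73% and 6.45%, 1 higher and 1 lower. Without models of overlapping exon intervals they held 7.10% and 6.81%. The share with a 3-nt first exon ran from 9.09% (at least 100 CPM) to 19.5% (at most 600 nt). Leaving out the overlapping scaffold 7 member, or the 4 members that share exon lengths with another member, was chosen after seeing the data; each left the median at -0.066 or -0.070 and the share at 13.9% or 12.4%. All 60 alternative ratios of the 12 named highest and lowest members stayed within their counting interval. No paired analysis was possible because each condition has 1 library. Depth limits little at these counts; the lack of replicates limits every ratio.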
